A study of Mus musculus with 12 samples.

Results

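Cell cycle and DNA replication genes were followed in mouse hippocampus in which doxycycline (dox) controls VP16-CREB, the transcription factor CREB made permanently active by the VP16 activation domain. The genes were taken by symbol. Cyclins had a letter from A to H and then a digit, which leaves out Ccnc, Ccnf and Ccnh. The others were numbered cyclin-dependent kinases (CDKs) and the genes named after them, and Cdkn genes, most of which encode CDK inhibitors. Numbered Cdc, Mcm and Rfc genes were also taken, with the numbered subunits of DNA polymerases alpha, delta and epsilon. Of 8251 genes with a single symbol on the array, 76 met this rule, on 99 of 12422 probe sets, and each gene was represented by its brightest probe set over all 12 arrays. Of the 76, 55 passed the filter on dim signal and were tested, and 21 did not.

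Each array held 1 RNA sample. Transgenic (VC) hippocampus was taken after dox removal, which turns VP16-CREB on, at 1 week (n = 2), at 2 weeks (n = 2) and at 5 weeks (n = 1). One VC hippocampal sample had the transgene on for 3 weeks and then off again under dox for 2 weeks (reversed). The never-induced group had 3 arrays, 2 from wild-type hippocampus and 1 from VC mice that stayed on dox. Microdissected CA1, a subfield of the hippocampus, was profiled in VC mice without dox for 3 weeks (n = 2) and in wild-type mice (n = 1). The wild-type mice were kept under the same conditions. The promoter that drives the dox-controlled activator, the strain and the age were not stated in the labels. A hippocampal sample pooled the tissue of 6 to 10 mice, so the spread between hippocampal arrays is that between pools. No pool size was given for the CA1 samples. Precision is limited by how many arrays there were.

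Cyclins switch on CDKs, and these kinases carry a cell from one phase of its cycle to the next, while CDK inhibitors hold them back. The MCM helicase opens DNA at replication origins, the RFC complex loads the sliding clamp PCNA, and polymerases alpha, delta and epsilon copy the strands. In the adult hippocampus the neurons no longer divide, and division is known from precursors in the dentate gyrus, from glial precursors and from microglia that react to injury. Several genes of these families, such as Cdk5 and Cdc42, work in neurons outside the cell cycle. The question put to the data was whether the glial marker genes that rise in late induced hippocampus are accompanied by genes of division.

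CREB binds the CRE sequence, and E2F factors drive many replication genes. A few promoters that hold such letters are shown, of replication genes whose values are given below. They are the windows from 250 bases before to 50 bases after the start of the gene (RefSeq, GRCm38.p6). Capitals mark the CRE (TGACGTCA), its core (TGACG) or an E2F sequence (TTTCCCGC or TTTGGCGC), each on either strand, and the core also lies within the full CRE.
Mcm5, chr8:75109259-75109558, plus strand: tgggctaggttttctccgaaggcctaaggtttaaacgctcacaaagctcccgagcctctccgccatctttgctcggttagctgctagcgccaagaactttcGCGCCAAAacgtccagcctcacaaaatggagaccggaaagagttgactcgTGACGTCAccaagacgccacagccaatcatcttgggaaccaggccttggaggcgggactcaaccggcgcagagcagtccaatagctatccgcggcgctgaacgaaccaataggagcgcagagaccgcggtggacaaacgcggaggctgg
Mcm3, chr1:20820263-20820562, minus strand: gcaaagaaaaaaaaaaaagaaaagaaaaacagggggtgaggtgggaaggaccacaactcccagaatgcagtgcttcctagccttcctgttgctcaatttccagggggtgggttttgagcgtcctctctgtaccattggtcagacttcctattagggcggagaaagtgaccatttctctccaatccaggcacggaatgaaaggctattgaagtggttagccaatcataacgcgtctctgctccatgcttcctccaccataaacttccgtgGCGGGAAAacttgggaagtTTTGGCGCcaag
Mcm2, chr6:88898731-88899030, minus strand: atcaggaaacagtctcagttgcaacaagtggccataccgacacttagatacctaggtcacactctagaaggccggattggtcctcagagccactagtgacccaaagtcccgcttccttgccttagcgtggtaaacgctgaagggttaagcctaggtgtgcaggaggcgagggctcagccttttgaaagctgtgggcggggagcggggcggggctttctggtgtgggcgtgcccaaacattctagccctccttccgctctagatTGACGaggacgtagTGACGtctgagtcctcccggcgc
Pold3, chr7:100121453-100121752, minus strand: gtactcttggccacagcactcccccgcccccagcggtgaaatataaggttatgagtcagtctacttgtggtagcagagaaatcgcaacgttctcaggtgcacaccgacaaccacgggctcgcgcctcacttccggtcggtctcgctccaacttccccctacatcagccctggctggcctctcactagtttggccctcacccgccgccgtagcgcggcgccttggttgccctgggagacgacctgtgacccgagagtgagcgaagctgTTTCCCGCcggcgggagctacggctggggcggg
In Mcm5 the CRE began 99 bases before the start and the E2F sequence 149 bases before it. In Mcm2 the CRE cores began 14 and 28 bases after the start. Promoters were matched for 65 of the 76 genes, with 77 windows. The 11 genes without a window included Cdc25c, Ccnd1, Ccna2 and Mcm4. An E2F sequence lay in 19.5% of these windows, against 1.56% of all 32851 windows of the table. The full CRE lay in 5.19% of the windows (Mcm5, Cdc42, Cdc5l and Cdkn2b) against 1.79% of all windows, and the CRE core in 36.4% against 20.8%. CCAAT on either strand lay in 49.4% against 37.4%. Cdkn1a, described below, was not among the genes whose windows held a CRE, its core or an E2F sequence. A match describes the letters alone and is not evidence of binding.

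Levels are given as log2 of the intensity after each array was scaled to one trimmed mean, with a floor of 6.04, and differences are on the same log2 scale. The signal of Creb1, which encodes CREB, checked the labels. One of its probe sets read 8.31 to 9.63 on the 5 induced hippocampal arrays and 6.04 to 6.33 on the 3 never-induced ones. It read 8.86 and 9.56 in VC CA1 against 6.04 in wild-type CA1, and 7.10 on the reversed array. The other tested Creb1 probe set read 8.14 to 9.15 on the induced arrays and 6.36 to 7.66 on the never-induced ones. On the reversed array this probe set read 7.68, and in CA1 it read 7.69 and 8.80 in VC mice against 6.04 in wild type. Pairs of hippocampal arrays correlated at 0.932 to 0.978 over the log2 values, and pairs of CA1 arrays at 0.907 to 0.947. Pairs of a hippocampal and a CA1 array correlated at 0.828 to 0.921. The summed scaled intensity of 20 tested microglia and macrophage markers was 37713 to 74881 in late induced hippocampus (2 and 5 weeks) against 21048 to 24462 in never-induced hippocampus, and 77411 to 83863 in VC CA1 against 30510 in wild-type CA1. Of these markers 11 rose in late induced hippocampus and 9 in VC CA1 (limma, adjusted p under 0.05), and none fell. Of 12 astrocyte markers, Gfap alone rose in each of these comparisons. H2-Aa, an antigen-presentation gene on the microglia list, lay at the floor on every never-induced array. Cst7 and H2-Ab1, also on the list, averaged 6.12 and 6.36 there, close to it. On the wild-type CA1 array all of them lay at the floor. They are counted among the markers that rose in both comparisons.

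No cell cycle or replication gene passed the test in whole hippocampus at any of the times. Of the 20 microglia and macrophage markers, 0 passed at 1 week, 3 at 2 weeks and 12 at 5 weeks, and 0 over all 5 induced arrays together. None of the 55 cell cycle and replication genes passed when the 3 late induced arrays were compared with the 3 never-induced arrays (limma, Benjamini-Hochberg adjustment over 7069 probe sets), while 0.721% of all probe sets passed. Their median log2 difference was -0.03, against -0.02 over all probe sets, with 26 genes above 0 and 29 below. Differences ran from -0.43 (Pold3) to 0.57 (Pold2), and for 53 of the 55 the 95% interval of the difference lay between -1 and 1, so that a difference of more than 2-fold lay outside them. Summed over the 55 genes, the scaled intensity was 67509 to 70229 in late induced hippocampus and 69289 to 70858 in never-induced hippocampus. These intervals describe the signal of the tested genes in whole tissue. They do not cover the 21 genes that did not pass the filter, among them Cdk1, Cdc6 and Mcm6. Whether a small share of the cells divided was not tested. Since whole tissue was measured, a change in the number of dividing cells and a change in RNA per cell cannot be told apart. The values by array are drawn in the heat map, and single differences with their intervals in the interval plot.

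**Figure D1:**
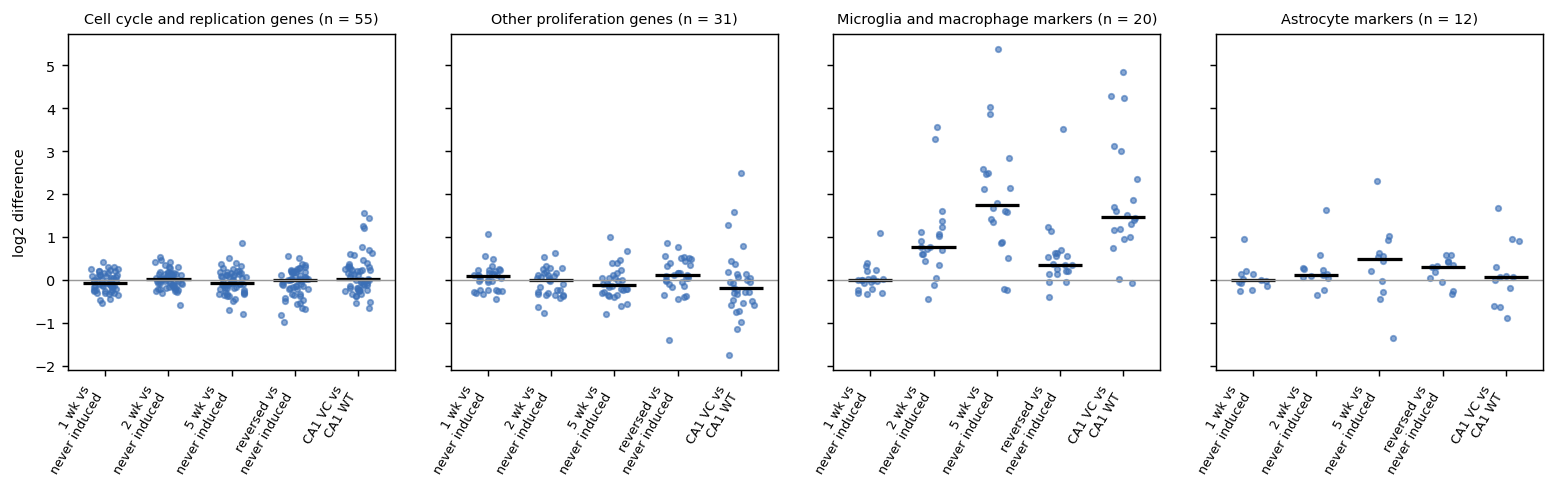
Log2 differences of single genes (points) in 5 comparisons for 4 sets of tested genes, with the median of each set as a black bar; the first 4 comparisons are with never-induced hippocampus, the last is VC against wild-type CA1. The 55 cell cycle and replication genes had medians of -0.06, 0.01 and -0.06 at 1, 2 and 5 weeks, while the 20 microglia and macrophage markers had medians of 0.00, 0.77 and 1.74.

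The separate time points gave the same count. At 1 week none of the 55 passed (0.0283% of all probe sets did), with a median of -0.06 and 22 genes above 0. At 2 weeks none passed (0.156%), with a median of 0.01 and 28 above 0. At 5 weeks, where 0.99% of all probe sets passed, none of the 55 did, with a median of -0.06 and 24 above 0. Over all 5 induced arrays against never-induced hippocampus the count was again 0 (0.0283% of all), with differences from -0.35 (Pold3) to 0.29 (Cdc16). For all 55 the 95% interval then lay between -1 and 1. It did so for 49 at 1 week, 49 at 2 weeks and 43 at 5 weeks. At an unadjusted p under 0.05, 0 of the 55 were reached over all induced arrays (3.15% of all probe sets), 1 at 1 week (5.01%), 2 at 2 weeks (4.46%), 2 at 5 weeks (7.3%) and 2 in the late comparison (5.23%). At 1 week that gene was Cdk2ap2 (-0.45), which encodes a protein that binds Cdk2. At 2 weeks they were Cdc25c (0.55) and Cdc23 (-0.58), at 5 weeks Pold2 (0.86) and Pold3 (-0.80), and in the late comparison Cdc25c (0.42) and Pold3 (-0.43). These comparisons share the never-induced arrays, and the late and the all-induced comparison also reuse induced arrays of the separate time points.

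**Figure D2:**
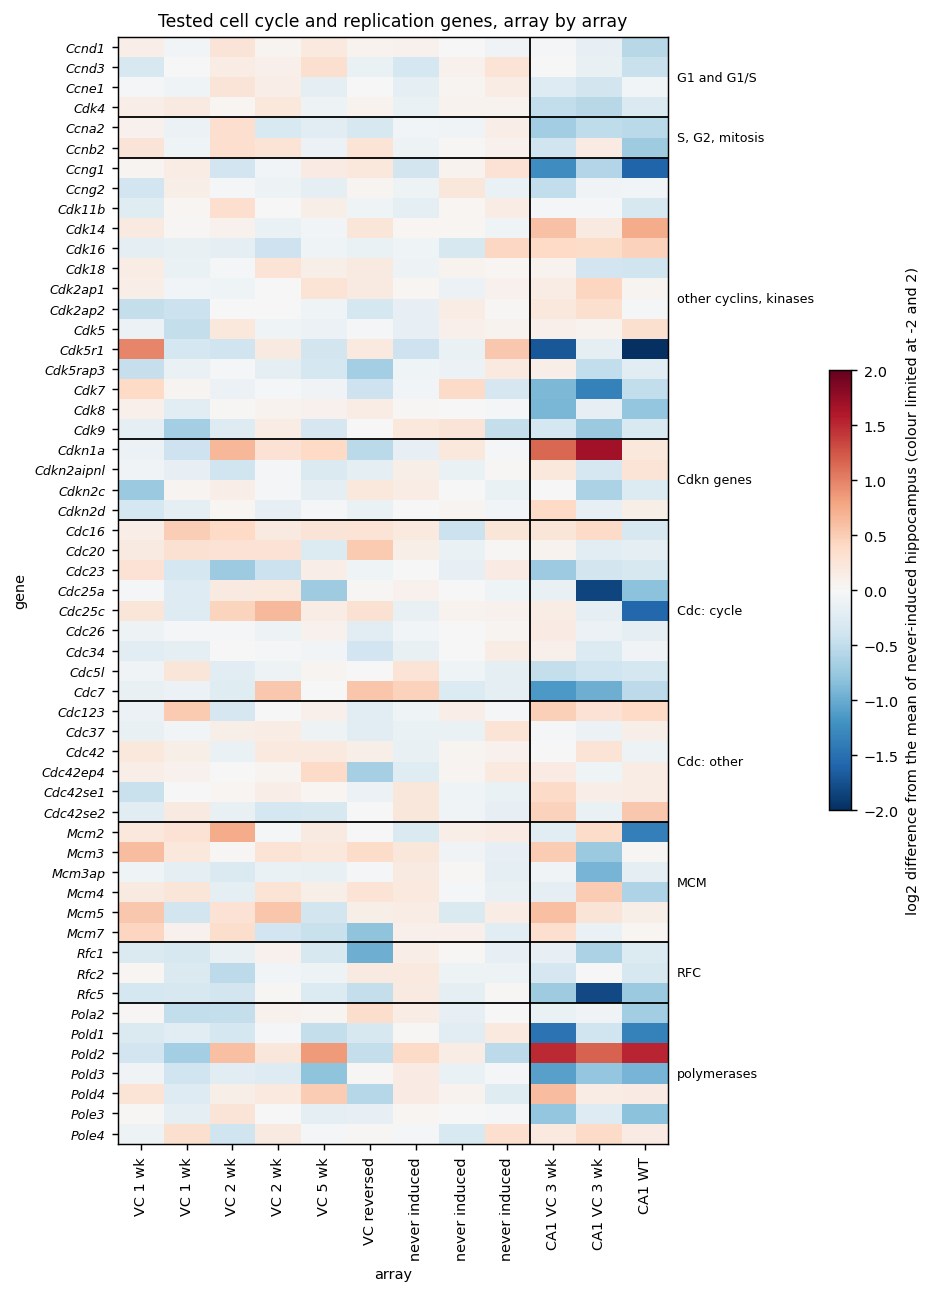
Log2 difference of each of the 55 tested genes (rows, grouped by role) from its mean in never-induced hippocampus, on each of the 12 arrays (columns); blue is lower and red higher. The hippocampal columns hold few strong colours, and the CA1 columns at the right stand apart from them for genes such as Pold2, Ccng1 and Cdk7.

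Of 4 tested cyclins and kinases that start the cycle (G1 and its passage to S phase), none passed, and their late differences had a median of 0.12. Ccnd1, the D-type cyclin that relays growth signals to Cdk4, read 11.13 and 10.92 at 2 weeks and 11.05 at 5 weeks, against 10.95 and 10.80 in wild type and 10.85 on dox. A single late array lay below the highest never-induced array, so the groups overlapped, with a difference of 0.17 ± 0.14 SE (adjusted p = 0.999, limma). At 1 week Ccnd1 read 11.00 and 10.81, and 10.93 after reversal.
Cdk4, the partner kinase of the D-type cyclins, read 11.26 and 11.44 at 2 weeks and 11.14 at 5 weeks, against 11.09 and 11.29 in wild type and 11.31 on dox. It averaged 11.28 ± 0.15 in late induced and 11.23 ± 0.12 in never-induced hippocampus (SD, n = 3 each), with a difference of 0.05 and a 95% interval from -0.25 to 0.35. Ccnd3 differed by 0.19, and Ccne1, the cyclin that works with Cdk2 at the entry to S phase, averaged 10.51 ± 0.24 in late induced and 10.44 ± 0.18 in never-induced hippocampus. Ccnd2 did not pass the filter. It read 7.29, 7.39 and 7.10 on the late arrays, against 8.23 and 7.97 in wild type and 7.15 on dox. The 2 wild-type arrays thus lay above the late arrays, and the array on dox lay among them. At 1 week Ccnd2 read 8.28 and 8.13, and 8.26 after reversal, also above the late arrays. In CA1 it read 8.15 and 7.43 in VC mice against 8.57 in wild type.

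Cyclins and kinases of S phase, G2 and mitosis overlapped between the groups or were dim. Ccna2, the cyclin of S phase and G2, read 10.08 and 9.43 at 2 weeks and 9.52 at 5 weeks, against 9.68 and 9.86 in wild type and 9.67 on dox. The late arrays lay on both sides of the never-induced ones, and the difference was -0.07 with a 95% interval from -0.49 to 0.36. At 1 week Ccna2 read 9.82 and 9.63, and 9.42 after reversal. Ccnb2, a mitotic cyclin, differed by 0.16 ± 0.18 SE. Cdk1, the kinase that drives mitosis, lay at the floor on all 9 hippocampal arrays. In CA1 it read 8.34 and 6.04 in VC mice against 6.27 in wild type, so a single VC array carried its signal.
Ccne2, Cdkn3 and Pole2 lay at the floor on all 12 arrays. Ccnb1, another mitotic cyclin, was not among the 76.

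**Figure D3:**
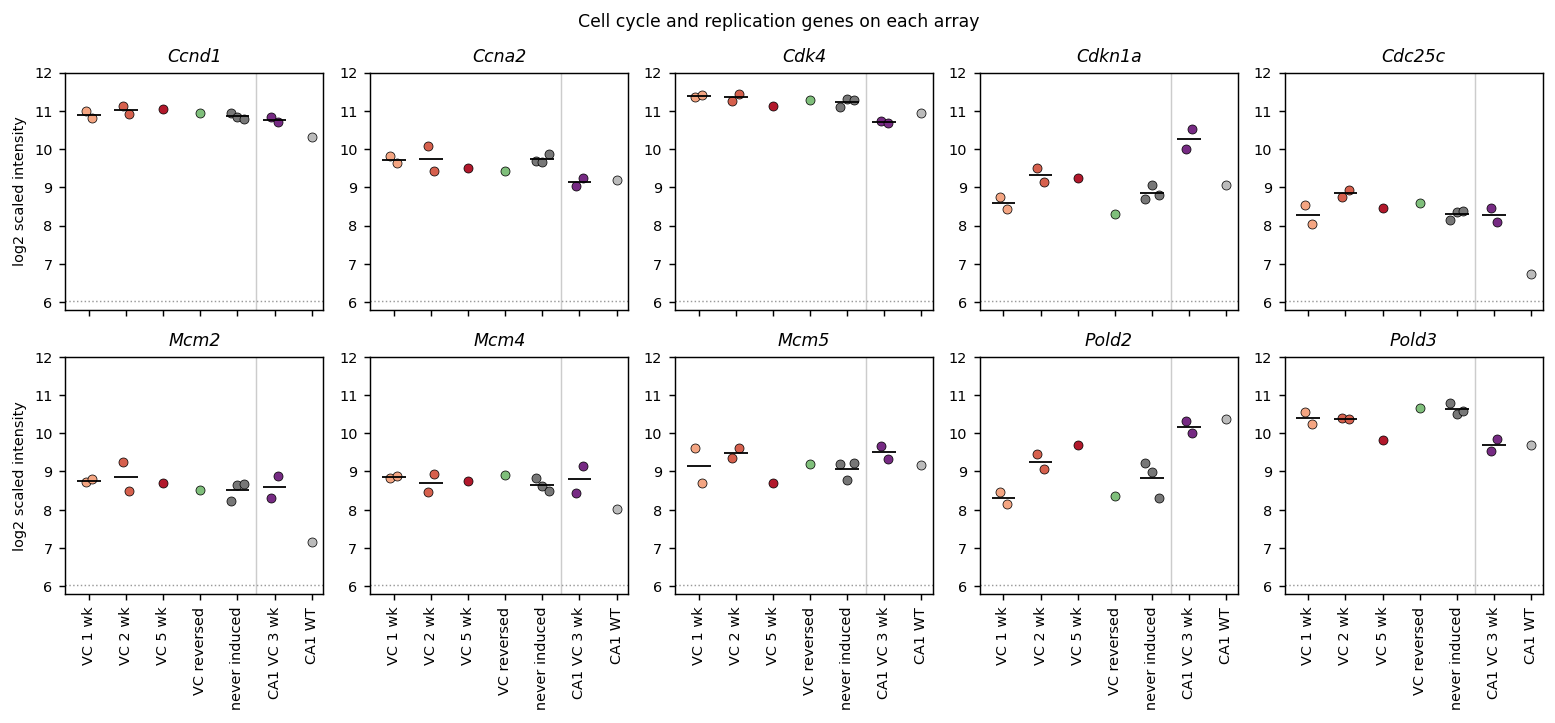
Log2 scaled intensity of 10 genes on each array (points), by group, with the mean of groups of more than 1 array as a bar and the floor as a dotted line; CA1 lies to the right of the vertical line. Hippocampal groups overlap for Ccnd1, Ccna2 and Cdk4, and for Cdc25c and Mcm2 the wild-type CA1 array lies below the other 11 arrays.

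Of the 4 tested Cdkn genes, Cdkn1a had the largest late difference. Cdkn1a encodes p21, which blocks CDKs and is a known target of p53. It read 9.51 and 9.13 at 2 weeks and 9.25 at 5 weeks, against 8.69 and 8.81 in wild type and 9.05 on dox. All 3 late arrays lay above all 3 never-induced arrays, with a difference of 0.45 ± 0.20 SE that did not pass (unadjusted p = 0.0506, adjusted p = 0.958, limma). Such a separation was seen for 2 of the 55 genes upward (Cdkn1a and Cdc25c; 6.14% of all probe sets) and for 1 downward (Pold3; 6.28%).
At 1 week Cdkn1a read 8.74 and 8.43, and after reversal 8.30, below every never-induced array. None of the 55 passed between the late and the 1-week arrays (0.396% of all probe sets did), with 3 higher at an unadjusted p under 0.05 (4.91%) and 0 lower (3.71%): Cdkn1a, Pold2 and Cdk2ap2. Cdkn1a was 0.72 higher on the late arrays (unadjusted p = 0.0113, adjusted p = 0.373), and the reversed array was 1.00 lower than the late ones (adjusted p = 0.58). The other Cdkn1a probe set read 9.53, 8.10 and 9.61 on the late arrays, against 7.05 and 7.70 in wild type and 8.86 on dox, and overlapped between the groups. Its late difference was 1.21 (unadjusted p = 0.0368, adjusted p = 0.842), larger than that of the brighter probe set. At 1 week this dimmer probe set read 9.20 and 9.34, above the 8.10 of a 2-week array, so the 2 probe sets differ in their course.
Of 9 tested genes of a p53 target list that includes Cdkn1a, 1 passed in the late comparison, the stress gene Gadd45b (1.08, adjusted p = 0.0385), and the list's median was -0.02 against -0.02 over all probe sets. Cdkn2c and Cdkn2d, inhibitors of the INK4 family, averaged 9.31 ± 0.16 and 11.13 ± 0.11 in late induced hippocampus, against 9.33 ± 0.14 and 11.18 ± 0.05 in never-induced hippocampus. Cdkn2aipnl, the fourth tested, is not itself an inhibitor and had a late difference of -0.24. Cdkn1b, which encodes p27, did not pass the filter and stayed between 6.04 and 6.72 on all 12 arrays.

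The 6 tested genes with an Mcm symbol had late differences from -0.19 (Mcm3ap) to 0.30 (Mcm2) with a median of 0.12. Their arrays overlapped between the groups. Mcm2 read 9.25 and 8.48 at 2 weeks and 8.69 at 5 weeks, against 8.22 and 8.67 in wild type and 8.65 on dox, with a difference of 0.30 ± 0.25 SE (adjusted p = 0.999). Mcm5, whose promoter holds both a full CRE and an E2F sequence, read 9.36, 9.62 and 8.69 on the late arrays, against 9.20, 9.21 and 8.77 on the never-induced ones. Its difference of 0.16 had a 95% interval from -0.41 to 0.73.
At 1 week Mcm2 read 8.73 and 8.80, and Mcm5 read 9.61 and 8.70.
Mcm3, whose promoter has an E2F sequence on each strand, read 8.78, 9.04 and 8.97 on the late arrays, against 8.99, 8.60 and 8.69 on the never-induced ones (0.17). Mcm4 read 8.47, 8.93 and 8.76 on the late arrays, against 8.84, 8.49 and 8.61 on the never-induced ones (0.07). Neither separated the groups. Mcm7 read 8.62, 7.89 and 7.81 on the late arrays, against 8.37, 8.06 and 8.36 on the never-induced ones (-0.16), and 7.46 on the reversed array, the lowest of the hippocampal values. Mcm6 and Mcm10 did not pass the filter, and Mcm6 lay at the floor on all late arrays. Mcm3ap, named for binding Mcm3, had a difference of -0.19. The other tested genes with a full CRE, Cdc42 and Cdc5l, had late differences of 0.09 and -0.09. Of 14 genes with an E2F sequence, 7 were tested, 2 of them above 0 and 5 below, with a median of -0.11 against -0.02 over all probe sets. Between VC and wild-type CA1, 4 of these 7 were above 0 and 3 below, with a median of 0.06 against -0.02 over all. Of 18 tested genes with the CRE core, 10 were above 0 in the late comparison (45.0% of all probe sets). In CA1 13 of the 18 were above 0 (47.9%). Their medians were 0.05 and 0.22.

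Among the polymerase genes, Pold2 and Pold3 had the highest and the lowest late difference of the 55. Pold3, an accessory subunit of polymerase delta, read 10.39 and 10.36 at 2 weeks and 9.83 at 5 weeks, against 10.80 and 10.58 in wild type and 10.50 on dox. Its late arrays all lay below the never-induced ones (-0.43 ± 0.16 SE, unadjusted p = 0.0257, adjusted p = 0.731). At 1 week it read 10.56 and 10.23, and 10.65 after reversal, so the 5-week array was the lowest of the hippocampal ones.
Pold2, another accessory subunit, read 9.45, 9.07 and 9.70 on the late arrays, against 9.23, 8.31 and 8.98 on the never-induced ones, which overlap. At 1 week it read 8.45 and 8.16, and the late arrays were 1.10 ± 0.28 SE above these (unadjusted p = 0.00368, adjusted p = 0.268). Its probe set is of the _r_at class, for which the usual rules of probe selection were relaxed. These 2 subunits of one polymerase had late differences of opposite sign.
The catalytic subunit gene Pold1 had a late difference of -0.29 ± 0.26 SE. The 3 tested RFC genes, Rfc1, Rfc2 and Rfc5, had differences from -0.23 to -0.13, and none passed.

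Cdc genes act at many steps. Cdc25c, a phosphatase that activates Cdk1, read 8.75 and 8.94 at 2 weeks and 8.45 at 5 weeks, against 8.15 and 8.37 in wild type and 8.36 on dox. Its late arrays lay above the never-induced ones, with a difference of 0.42 ± 0.18 SE (unadjusted p = 0.0461, adjusted p = 0.936). At 1 week it read 8.53 and 8.04, and 8.60 after reversal. Its probe set is of the _s_at class, which marks sequence shared between transcripts. Cdc16 and Cdc23, subunits of the anaphase-promoting complex, had late differences of 0.28 and -0.34. Cdc20, its activator, read 8.93, 8.93 and 8.36 on the late arrays, against 8.76, 8.66 and 8.50 on the never-induced ones. The 6 Cdc genes with other roles, among them Cdc42 and the chaperone partner Cdc37, had late differences from -0.28 to 0.14. Cdk5, the neuronal kinase, averaged 11.94 ± 0.18 in late induced and 11.94 ± 0.15 in never-induced hippocampus.

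**Figure D4:**
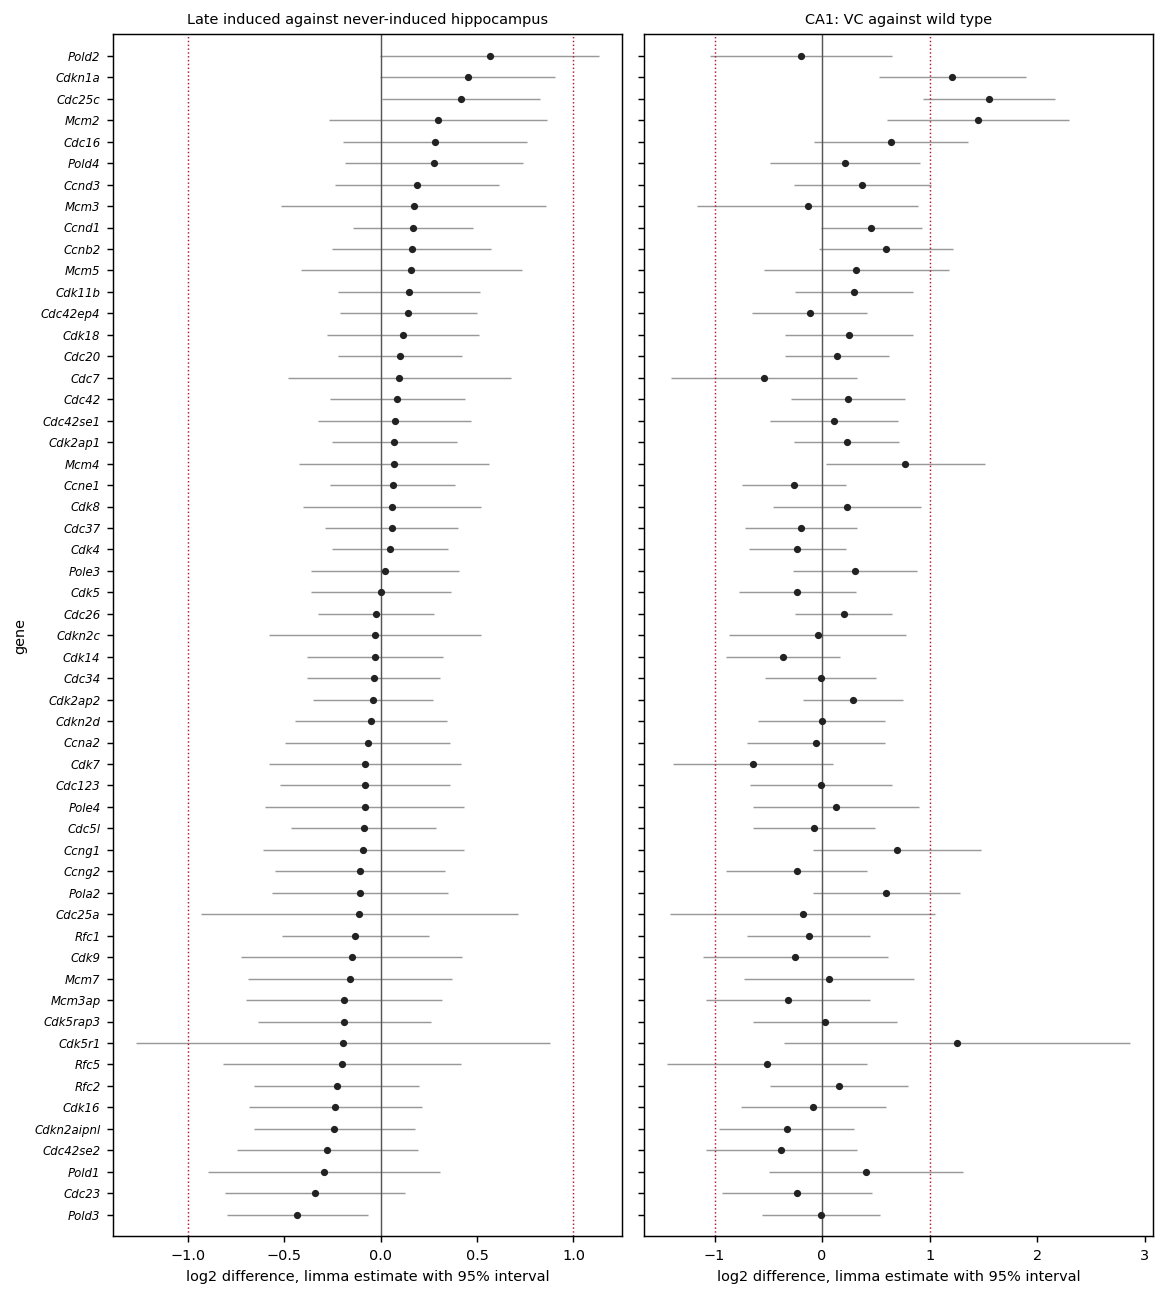
Log2 difference of each tested gene with its 95% interval from limma, ordered by the late difference, for late induced against never-induced hippocampus (left) and VC against wild-type CA1 (right); dotted lines mark -1 and 1. On the left the intervals of 53 of 55 genes lie within the dotted lines, and on the right those of 34.

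In CA1, 1 of the 55 genes passed, and it rose, while 1.26% of all probe sets passed. Cdc25c read 8.45 and 8.10 in VC CA1 against 6.72 in wild-type CA1, a difference of 1.55 ± 0.27 SE (2.93-fold, adjusted p = 0.0362, limma). On the 9 hippocampal arrays it read 8.04 to 8.94, so the 2 VC CA1 arrays lay within the hippocampal range and the wild-type CA1 array lay below it. The other Cdc25c probe set did not pass the filter and read 6.84 and 6.04 in VC CA1 against 6.04 in wild-type CA1. The call was lost in 6 of the alternative settings in which the gene was tested, at adjusted p values from 0.0577 (the scale of the deposited values as a block) to 1.0 (values as deposited, a difference of 0.71). It held without either VC CA1 array, at 1.38 and 1.73.

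At an unadjusted p under 0.05, 4 of the 55 genes were higher in VC CA1 (6.89% of all probe sets) and 0 lower (4.13%). Besides Cdc25c these were Cdkn1a, Mcm2 and Mcm4. Cdkn1a read 10.00 and 10.53 in VC CA1 against 9.05 in wild-type CA1 (1.21 ± 0.30 SE, adjusted p = 0.128), and both VC CA1 arrays were above every hippocampal array. Its other probe set read 9.83 and 10.41 against 9.19. Of the 9 tested genes of the p53 target list, 6 were above 0 in CA1 (47.9% of all probe sets). Their median was 0.41 against -0.02 over all, and they ran from -1.02 (Plk3) to 1.21 (Cdkn1a), with Gadd45b at 1.05. A part of p53 was not tested. Mcm2 read 8.30 and 8.89 in VC CA1 against 7.14 in wild-type CA1 (1.45 ± 0.37 SE, adjusted p = 0.143), and Mcm4 read 8.45 and 9.15 against 8.03 (0.78 ± 0.32 SE, adjusted p = 0.426).
For Mcm2 and Mcm4, as for Cdc25c, the wild-type CA1 array was the lowest of all 12. It was below the other 11 arrays for 12 of the 55 genes (17.0% of all probe sets) and above them for 6 (13.4%). These differences rest on that 1 wild-type array. The 2 VC CA1 arrays were both above it for 20 of the 55 (29.4% of all probe sets) and both below it for 15 (31.6%). The median over the 55 was 0.03 against -0.02 over all probe sets, with 28 above 0 and 27 below.
Ccnd1 read 10.84 and 10.70 in VC CA1 against 10.31 in wild-type CA1 (0.46, adjusted p = 0.463). Ccna2 read 9.04 and 9.24 against 9.19, and Cdk4 read 10.74 and 10.68 against 10.94. The microglia and macrophage markers were higher on the same 2 VC CA1 arrays, as given above, and their part in the differences of Cdc25c, Cdkn1a and the MCM genes was not tested.

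The difference between the CA1 effect and the late hippocampal effect was tested directly. None of the 55 passed (0.099% of all probe sets did), with 2 above 0 at an unadjusted p under 0.05 (3.82%) and 0 below (1.97%). The 2 were Cdc25c (1.13 ± 0.32 SE, adjusted p = 0.465) and Mcm2 (1.15 ± 0.45 SE, adjusted p = 0.776). Cdkn1a differed by 0.76 (adjusted p = 0.896). The interval of the difference lay between -1 and 1 for 29 of the 55, so for the others a difference of 2-fold lay within it.

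Between the regions, irrespective of the transgene, some genes of the families stood apart. All 3 CA1 arrays lay below all 9 hippocampal arrays for 8 of the 55 genes (16.8% of all probe sets): Ccna2, Ccng1, Cdc5l, Cdc7, Cdk4, Cdk7, Pole3 and Rfc5. They lay above for 1 (7.61%), Pold2, at 10.02 to 10.37 in CA1 and 8.16 to 9.70 in hippocampus. Cdk4 read 10.68 to 10.94 in CA1 and 11.09 to 11.44 in hippocampus. Ccna2 read 9.04 to 9.24 in CA1 and 9.42 to 10.08 in hippocampus. All CA1 arrays and a single hippocampal one, wild-type array 1, were deposited on the lower of 2 scales. That array read 9.68 for Ccna2, 11.09 for Cdk4 and 9.23 for Pold2, on the hippocampal side, which the counts above require. Apart from this 1 array, region and scale go together. The part of scale was not tested, and no test between the regions was made.

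After reversal none of the 55 passed against never-induced hippocampus (0.0% of all probe sets did) or against late induced hippocampus (0.0566%). At an unadjusted p under 0.05, 4 were lower than in never-induced hippocampus (1.87%), namely Rfc1 (-0.98), Mcm7 (-0.80), Cdk5rap3 (-0.67) and Cdc42ep4 (-0.66), and 1, Cdc20 (0.52), was higher (1.51%). Rfc1, the large subunit of the clamp loader, read 7.94 on the reversed array, against 9.06 and 8.77 in wild type and 8.95 on dox, and 8.60 to 9.01 on the induced arrays. With an adjusted p of 1.0 in limma and a single reversed array it did not pass. Against late induced hippocampus 5 were lower at an unadjusted p under 0.05 (3.58%) and 0 higher (1.98%): Cdkn1a, Pold2, Pold4, Rfc1 and Cdc42ep4. Both comparisons use the same reversed array.

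Other genes of division, taken from a list that holds none of the 76, gave a like count. Of 70 genes 63 had a probe set and 31 were tested. None passed in late induced hippocampus (0.721% of all probe sets did), with 14 above 0 and a median of -0.07 against -0.02 over all. At an unadjusted p under 0.05, 3 were lower and none higher (5.23% of all probe sets, either way). These were Incenp (-0.42) and Anln (-0.55), which act in cell division, and Orc6 (-0.52), a subunit of the origin recognition complex.
Pcna, the sliding clamp, read 10.07 and 10.69 at 2 weeks and 11.18 at 5 weeks, against 10.59 and 10.72 in wild type and 10.84 on dox. Mki67, the gene of the division marker Ki-67, did not pass the filter and read 8.37, 8.51 and 8.02 on the late arrays, against 8.47, 8.43 and 7.86 on the never-induced ones. Top2a, a topoisomerase of dividing cells, lay at the floor on every array but the one on dox (6.49).
In VC CA1 1 of the 31 passed and fell, while 1.26% of all probe sets passed. It was Dut (-1.74, adjusted p = 0.0362, limma), an enzyme that keeps uracil out of DNA. Of the 31, 11 were above 0, with a median of -0.19 against -0.02 over all probe sets. At an unadjusted p under 0.05, 2 were higher (6.89% of all probe sets), Foxm1 and Pcna. Lower at that level were 4 (4.13%): Dut, Incenp (-0.75), Plk1 (-0.97) and E2f1 (-0.53). Foxm1, a transcription factor of mitotic genes, read 9.47 and 10.14 in VC CA1 against 7.31 in wild-type CA1, and did not pass (2.50, adjusted p = 0.118). Its hippocampal arrays read 9.38 to 10.83. Pcna read 11.14 and 11.66 in VC CA1 against 9.82 in wild-type CA1, and did not pass (1.58, adjusted p = 0.0576). Mki67 read 7.78 and 7.93 in VC CA1, while the wild-type CA1 array lay at the floor and the hippocampal arrays read 7.86 to 8.81.

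Of the 76 genes, 21 had more than 1 probe set, and 8 had more than 1 that was tested. Their late differences had 1 sign within 4 of these 8. Over the 9 tested probe sets that were not the brightest of their gene, late differences ran from -0.66 to 1.21, with 3 above 0 and 6 below. At an unadjusted p under 0.05 (5.23% of all probe sets, either way), 2 of the 9 were higher and 2 lower. The higher were of Cdkn1a (1.21) and Cdk11b (0.40, beside 0.15 for its brightest), the lower of Cdk4 and Cdc5l. None passed the adjusted threshold. For Cdk4 the dimmer probe set had a late difference of -0.39 (adjusted p = 0.945) beside 0.05, for Cdc5l -0.59 (adjusted p = 0.577) beside -0.09. Between VC and wild-type CA1, the dimmer Cdc5l probe set had a difference of -1.10, beside -0.08 for its brightest. The Cdk11b probe set with the late difference of 0.40 had 0.56 in CA1, beside 0.30 for its brightest. The counts given above for CA1 are of the brightest probe sets alone.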

How the data were processed

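Expression was measured on 12 one-colour Affymetrix arrays of biotin-labelled polyA RNA, 9 of hippocampus and 3 of CA1. The deposited values are intensities on a linear scale. The submitters' processing notes name GCOS, without a version, an algorithm or a scaling target. Trimming 2% at each end left a mean of 3002 on 8 arrays, against 500.3 to 500.4 on the CA1 arrays and wild-type hippocampal array 1. All arrays were therefore brought to 1 trimmed mean (1000), values under the 20th percentile over all arrays (65.7, or 6.04 as log2) were set to it, and log2 was taken. Of 12488 probe sets, 66 controls were left out. The 7069 that lay above their array's median on at least 2 arrays were tested. The array annotation gave 10833 probe sets 1 symbol, 396 several and 1193 none, and all 76 symbols matched RefSeq.

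Differences were tested two-sided with limma 3.58.1 under R 4.3.3 (lmFit, eBayes, Benjamini-Hochberg over all tested probe sets, threshold 0.05) with 7 levels: never induced, 1, 2 and 5 weeks, reversed, CA1 wild type and CA1 VC. All induced arrays were compared in a fit with 5 levels. Levels with a single array took their spread from the replicated levels. The code was tested on simulated data. The samples were grouped by their titles. The description of the reversed sample calls it wild type, and its title was followed.

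Named in full were Ccnd1, Ccnd2, Ccna2, Ccnb1, Cdk1, Cdk4, Cdkn1a, Cdkn1b and Mcm2 to Mcm7 where measured, and genes at an unadjusted p under 0.05 in the late or CA1 comparison; others were named after their values were seen. The genes and lists were chosen with earlier results of these data known. Lists of cyclins, oligodendrocyte, endothelial, choroid plexus, dentate and blood genes had 0 members past the threshold in the late and CA1 comparisons. Promoters came from RefSeq (GRCm38.p6). Same-numbered replicates did not deviate together (correlations -0.097 to 0.042), so the numbers were not taken as pairs.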

Additional observations from a re-analysis of the deposited data

Results flagged for a closer look

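Among the genes named in full, 1 value stood apart from the other induced hippocampal arrays. Mcm6, a subunit of the MCM helicase, read 6.79 on 1-week array 1, while the other 4 induced arrays lay at the floor of 6.04. On the never-induced arrays it read 6.47 and 6.04 in wild type and 6.10 on dox. The gene did not pass the filter on dim signal. With the others tied at the floor, any single value above it stands apart in this way.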

How the results depend on the processing

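Over 10 comparisons and 164 alternative settings, the number of the 55 genes past the threshold was unchanged in 155, and it was 0 in every setting for 9 of the comparisons. The exception was VC against wild-type CA1, where it was 1 (Cdc25c). It was 0 with values as deposited, a floor at the 30th percentile, a filter on 4 arrays, limma's trend and robust settings, probe sets without a suffix, CA1 arrays alone, the deposited scale as a block, and the 5-level fit. Leaving out either VC CA1 array gave 1 to 4; the 4, without array 1, were Cdc25c, Cdkn1a and Mcm2, higher, and Cdc25a, lower (7.84 against 8.87). Without the wild-type CA1 array no value exists. Pold3's late difference of -0.43 was 0.43 with values as deposited, where arrays of 2 scales are set side by side. The cause of the other changes was not tested. With the replicate number as a replicate block over the wild-type, 1-week and 2-week arrays, 0 genes passed in the 5 hippocampal comparisons it could be fitted to, and it changed no call; the unpaired 5-week array carries no weight there, so late equals 2 weeks. Intervals were wide for the single 5-week, reversed and wild-type CA1 arrays.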
